A study of Mus musculus with 8 samples.

Results

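The postsynaptic density scaffolds and kinases are 35 genes listed by name and function, with no threshold on their values: the MAGUK, SAPAP, SHANK and HOMER scaffolds, the calcium/calmodulin-dependent (CaM) kinases, regulators of small GTPases, phosphatase anchors, adaptors with PDZ domains and gephyrin. All 35 were found by symbol among the 39017 Ensembl genes of the count table, all 35 were among the 17654 genes that passed the filter on low counts, and no library held fewer than 259 counts for any of them. RNA was captured from mouse hippocampus by translating ribosome affinity purification (TRAP), in which Cre recombinase expressed from Cck switches on a ribosomal protein L10 fused to EGFP and the tagged ribosomes are pulled down with their RNA. All 8 libraries came from mice that carried Cck-Cre and L10-EGFP, and each pooled 4 hippocampi. Cre labels cells that express Cck or did so earlier, and RNA from before the pull-down was not analysed here. Mice of the conditional knockout (cKO, 5 libraries) were in addition SMARCA3 fl/fl (SMARCA3 is the protein of the gene Hltf, a chromatin remodeller), and their littermates without it gave the wild type (WT, 3 libraries). Ages, sexes and which pools share a litter are not given in the sources used here, so p-values measure the spread between these pools.

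Total counts ran from 31760155 to 61823651 per library. Levels are given as CPM, the counts scaled to the library size after trimmed-mean scaling, and a level written with ± carries the SD over the 3 WT or the 5 cKO libraries. A log2 fold change compares cKO with WT and carries its SE after ±, worked back from the edgeR test statistic. Hltf itself gave 13.7, 8.39 and 9.87 CPM in WT 1, 2 and 3 and 5.1, 4.49, 4.21 and 2.83 CPM across cKO 1 to 4, and the library labelled cKO 5 gave 11.4 CPM. For Hltf cKO against WT came to -0.93 ± 0.39 on the log2 scale, with 0.558 as edgeR adjusted p, and to -1.36 if that last library is left out. The library labelled cKO 5 thus lay within the WT range for Hltf, against its label. It stood apart on principal component 1, which held 31.1% of variance, and cKO 4 did so on component 2, with 22.3%. The results below are therefore also given from the 6 other libraries. Of genes with a mean of at least 1 CPM over the other libraries, 75 had a count of 0 in the library labelled cKO 5 and 25 in cKO 4. The 6 other libraries had 4 to 19 such genes. The scaling factors were 0.95 for the library labelled cKO 5 and 0.976 for cKO 4, against 1.01 to 1.02. The part of this in the differences was not tested. Both kinds of neuron were in the pull-down: Slc17a7, which encodes a vesicular glutamate transporter of excitatory neurons, was at 344 ± 17.9 CPM (WT) against 484 ± 44.7 CPM (cKO), and Gad2, which encodes an enzyme of GABA synthesis, at 86.4 ± 9.59 CPM (WT) against 68.8 ± 16.5 CPM (cKO). Cck was at 539.5 ± 112 CPM (WT) against 661 ± 108 CPM (cKO), and Gad1, the other enzyme of GABA synthesis, at 34.2 ± 10.1 CPM (WT) against 35.3 ± 16 CPM (cKO). In bulk pull-downs, fewer cells of a type and less RNA per cell cannot be told apart.

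The postsynaptic density is a protein sheet under the membrane of excitatory synapses. MAGUK proteins hold glutamate receptors through their PDZ domains, SAPAP proteins link MAGUKs to SHANK, and SHANK binds HOMER, which reaches to metabotropic glutamate receptors and internal calcium stores. CaM kinase II, activated when calcium enters through NMDA receptors, is among the most abundant proteins of this sheet and phosphorylates receptors and scaffolds during long-term potentiation, while gephyrin is the matching scaffold of inhibitory synapses.

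Among the members, the alpha subunit of CaM kinase II gave the most RNA per length. Levels between genes were compared as CPM per kilobase of merged exons. In WT, Camk2a stood at 814 ± 30.3 CPM per kilobase (SD over WT libraries), the catalytic calcineurin subunit Ppp3ca at 180.5 ± 15.4, the Ras pathway scaffold Cnksr2 at 118 ± 2.58 and the nuclear kinase Camk4 at 91.1 ± 2.7. Kalrn at 74.5 ± 13 and Camk2b at 69.8 ± 1.25 came next and did not differ beyond their spread. The lowest were Camk2d at 2.15 ± 0.212, Shank3 at 1.77 ± 0.159, Grip1 at 1.69 ± 0.322 and Pick1 at 1.16 ± 0.141 CPM per kilobase, and of these Shank3 and Grip1 did not differ beyond their spread. Within families the make-up was uneven. Camk2a made up 90.4 ± 0.649% of the 4 CaM kinase II genes per length in WT, Camk2b 7.76 ± 0.348%, Camk2g 1.57 ± 0.332% and Camk2d 0.239 ± 0.0181%. Shank1 and Shank2 shared the SHANK family at 50.5 ± 1.93% and 47.7 ± 1.93%, with Shank3 at 1.86 ± 0.156%. Dlgap1 held 54 ± 2.14% of the SAPAP family, while Dlg2, Dlg4 and Dlg3 held 34 ± 1.42%, 30.6 ± 2.33% and 28.2 ± 0.595% of the MAGUKs and Dlg1 7.31 ± 0.565%. Homer1 and Homer2 were near each other at 46.4 ± 0.693% and 43.7 ± 2.35%. Counts per gene do not separate isoforms, such as the short activity-induced form of Homer1, and a merged exon length that includes rare exons lowers the value per length of a gene.

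**Figure D1:**
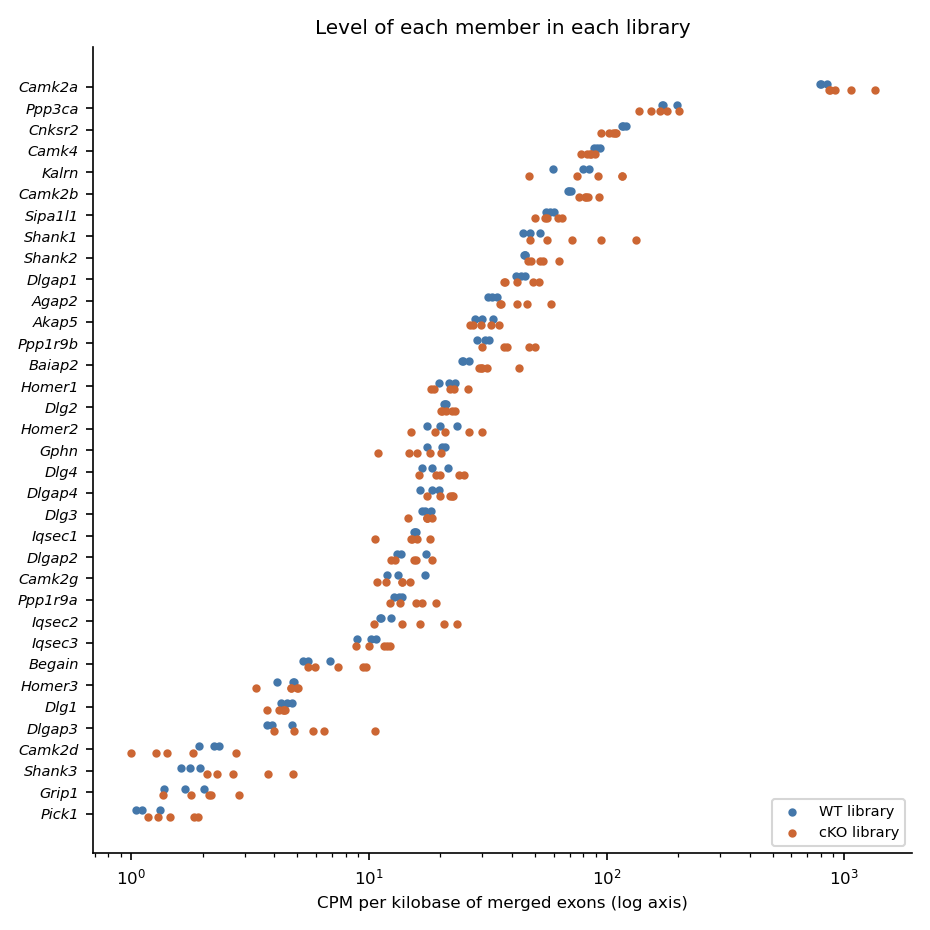
Level of each of the 35 members in CPM per kilobase of merged exons (log axis), 1 point per library, WT in blue and cKO in orange, genes ordered by WT mean. Camk2a stood above all other members in every library, and Pick1 had the lowest WT mean.

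The comparison of cKO with WT asks how RNA of these genes on tagged ribosomes differs when SMARCA3 is deleted. By edgeR's quasi-likelihood test with Benjamini-Hochberg adjustment over all genes, 0 of 35 members passed an adjusted p of 0.05 (0% of all genes tested passed in either direction), and 0 members passed by DESeq2 (0.385% of genes higher and 0.227% lower) or by limma-voom (0.017% and 0.00566%). At an unadjusted p under 0.05, 9 members (25.7%) were higher in cKO, against 5.02% of all genes tested. Lower at that p was 1 member (2.86%), against 3.7% of all genes. In either direction it was 8.72% of all genes. Among genes with a mean log2 CPM above 4 it was 7.95, 12.2 and 23.9% at a GC content under 45%, 45 to 55% and over 55%. The members were chosen with earlier results of these data known. The 2 groups of libraries did not overlap in 6 members with cKO higher (17.1%, against 3.38% of all genes) and in 1 member with cKO lower (2.86%, against 3.82%). The median log2 fold change was 0.14 over the members and 0.02 over all genes tested, with 24 members above 0 and 11 below. With upper-quartile scaling 21 were above 0. By family, the SHANK scaffolds had a median log2 fold change of 0.74, the HOMER and MAGUK scaffolds each 0.01 (0 with upper-quartile scaling). The SHANK median was 0.49 without the library labelled cKO 5 and 0.28 over the 6 libraries that also leave out cKO 4.

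These counts depended on which libraries were included. From the 6 libraries that leave out cKO 4 and the library labelled cKO 5, 3 members were higher at an unadjusted p under 0.05 (8.57%, against 4.45% of all genes) and the median log2 fold change was -0.03. The groups did not overlap in 6 members with cKO higher there (17.1%, against 7.19%) and in 3 with cKO lower (8.57%, against 7.99%), and 1 member was lower at an unadjusted p under 0.05 (2.86%, against 4.94%). Leaving out only the library labelled cKO 5 gave 7 higher members (against 4.47% of all genes), and leaving out only cKO 4 also gave 7 (against 4.45%), with a median of 0.09 each time. The number was 3 without WT 2 (against 2.66%), 2 without WT 3 (against 3.21%) and 13 without cKO 1 (against 6.59%). The members' median deviation from the WT mean, on the log2 scale, lay between -0.05 and 0.06 in cKO 1, 2 and 3, at 0.22 in cKO 4 and at 0.27 in the library labelled cKO 5.

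**Figure D2:**
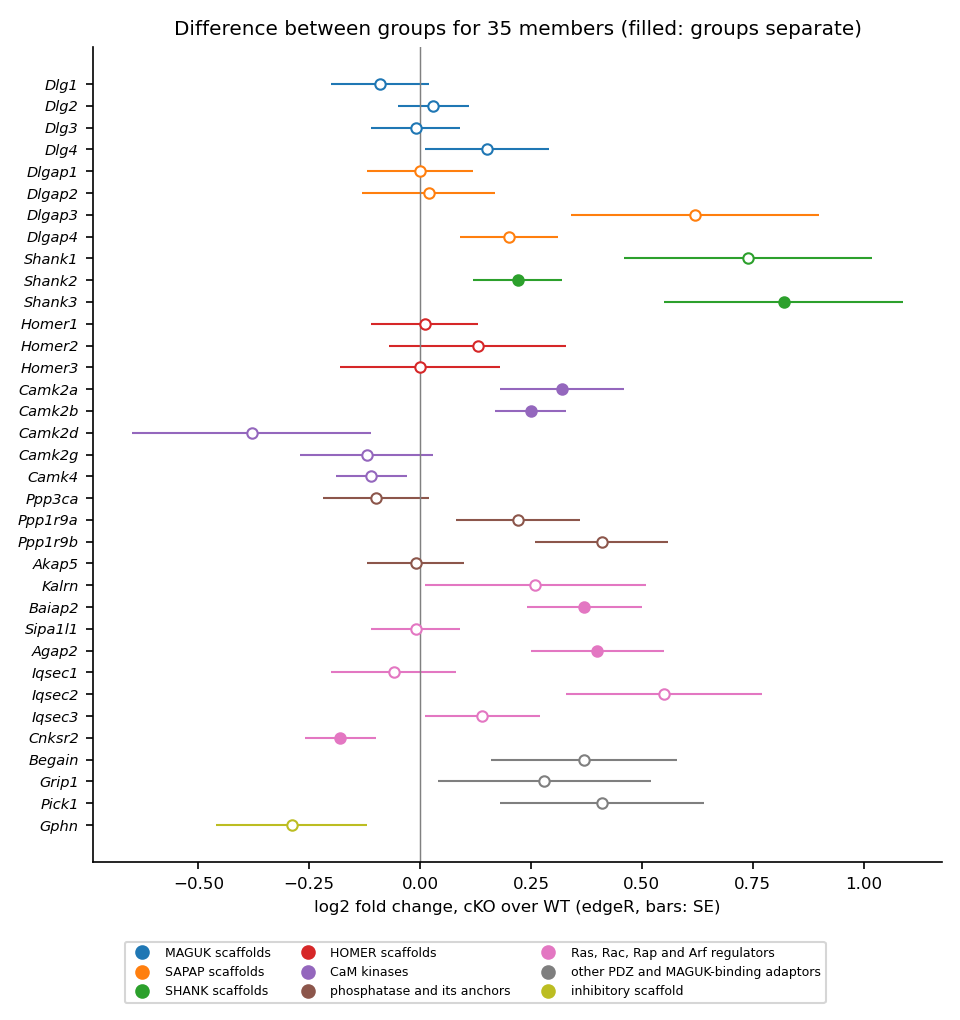
Log2 fold changes of cKO over WT for all 35 members, with bars of 1 SE, coloured by family; filled points mark members whose WT and cKO libraries do not overlap. The SHANK genes lie between 0.22 and 0.82, while the MAGUK and HOMER genes lie between -0.09 and 0.15.

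Of the 9 members that were higher in cKO at an unadjusted p under 0.05, 7 had a GC content over 55% in their longest transcript. The 11 members with a GC content over 55% had log2 fold changes from 0 (Homer3, which lay at -0.01 with upper-quartile scaling) to 0.82, with a median of 0.4, and 7 of them (63.6%) had an unadjusted p under 0.05. The same class of all well-expressed genes, those with a mean log2 CPM above 4, also leaned higher: 77.4% of 1232 genes were above 0, the median was 0.18, and 23.9% had an unadjusted p under 0.05. Members with a GC content of 45 to 55% (17 genes) had a median of 0.14, against 0 for 3933 genes of that class. Members under 45% (7 genes) had a median of -0.01, against -0.05 for 2340 genes. Across the 35 members the Spearman correlation of log2 fold change with GC content was 0.67, and across 7505 well-expressed genes it was 0.32. These points share the same 8 libraries and are not independent.

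After offsets for GC content and exon length had been fitted within each library, 1 member, Shank3, was higher at an unadjusted p under 0.05 (2.86%, against 3.99% of all genes), 0 members were lower (against 3.77%), and the median log2 fold change of the members was 0.04. Shank3 then stood at 0.51, Shank1 at 0.43, Dlgap3 at 0.37, Iqsec2 at 0.31, Camk2a at 0.21, Baiap2 at 0.2, Ppp1r9b at 0.18, Agap2 at 0.15, Camk2b at 0.12, Shank2 at 0.05 and Cnksr2 at -0.15. All 11 kept their sign, but they had been picked from the same libraries. The groups did not overlap with cKO higher in 2 members (5.71%, against 3.01% of all genes) and with cKO lower in 0 members (0%, against 3.72%).

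**Figure D3:**
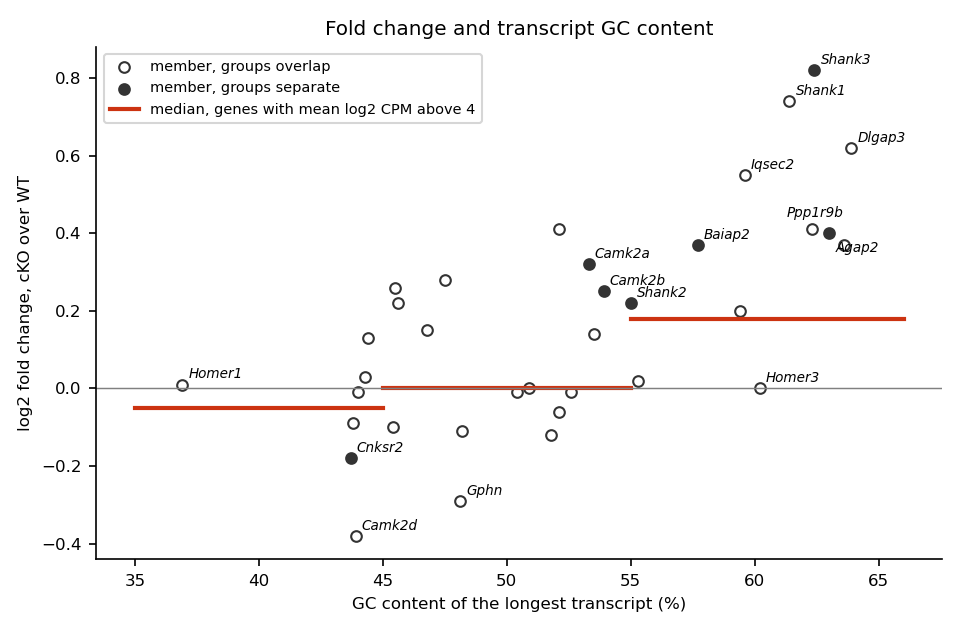
The log2 fold change of cKO over WT against the GC content of the longest transcript, 1 point per member, filled where the groups do not overlap. Red lines give the median of all genes with a mean log2 CPM above 4 in 3 classes of GC content, -0.05, 0 and 0.18, and the 11 members over 55% all lie at or above 0.

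The stretch before the start of transcription is shown for Shank3, Iqsec2, Camk2b and Cnksr2. At an unadjusted edgeR p under 0.05, Cnksr2 was lower and the others were higher. The GC content that went with the fold changes was that of transcripts. Whether the GC content of promoters did so was not tested. The sequences are from RefSeq (GRCm38.p6, the assembly of mm10), on the strand of the gene, and end at the base before the RefSeq start, or before the first annotated exon for Cnksr2. The Camk2b stretch is intronic to 1 longer noncoding transcript of that gene. Capitals mark the GC box GGGCGG or its reverse complement, a motif bound by Sp family factors.
Shank3, chr15:89499358-89499607, plus strand: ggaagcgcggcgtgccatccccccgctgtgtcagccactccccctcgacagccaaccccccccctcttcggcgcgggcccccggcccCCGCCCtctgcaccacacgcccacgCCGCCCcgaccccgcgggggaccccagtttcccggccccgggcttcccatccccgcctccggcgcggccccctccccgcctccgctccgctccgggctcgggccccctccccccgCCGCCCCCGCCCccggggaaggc
Iqsec2, chrX:152144018-152144267, plus strand: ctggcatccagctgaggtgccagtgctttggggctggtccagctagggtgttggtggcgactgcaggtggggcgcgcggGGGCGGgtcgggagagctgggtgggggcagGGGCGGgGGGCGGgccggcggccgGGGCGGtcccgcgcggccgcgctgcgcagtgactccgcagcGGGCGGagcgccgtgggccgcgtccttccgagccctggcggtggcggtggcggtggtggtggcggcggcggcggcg
Camk2b, chr11:6065749-6065998, minus strand: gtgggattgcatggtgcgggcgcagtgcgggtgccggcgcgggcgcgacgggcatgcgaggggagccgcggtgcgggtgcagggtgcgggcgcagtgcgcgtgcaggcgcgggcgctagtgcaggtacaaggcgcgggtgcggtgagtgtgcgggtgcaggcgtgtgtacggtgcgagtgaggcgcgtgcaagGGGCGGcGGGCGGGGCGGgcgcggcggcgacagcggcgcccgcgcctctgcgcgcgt
Cnksr2, chrX:158043295-158043530, minus strand: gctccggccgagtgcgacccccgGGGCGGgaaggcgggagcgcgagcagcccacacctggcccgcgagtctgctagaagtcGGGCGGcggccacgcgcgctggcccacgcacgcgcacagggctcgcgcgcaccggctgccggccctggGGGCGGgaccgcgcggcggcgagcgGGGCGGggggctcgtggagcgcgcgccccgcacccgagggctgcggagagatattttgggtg

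In windows of 250 bases these promoters held 4, 5, 3 and 4 GC boxes for Shank3, Iqsec2, Camk2b and Cnksr2, with a GC content of 82.4, 80, 78.4 and 79.6%. The other promoters of named members were more varied: Baiap2 held 5 GC boxes at a GC content of 72.8%, Ppp1r9b 0 at 78%, Agap2 1 at 56% and Dlgap3 0 at 46.8%. Part of this sequence is not upstream of the annotated gene. The Baiap2 window began in an exon of the gene, the Ppp1r9b window overlapped one, and the Agap2 and Dlgap3 windows lay inside the annotated gene. The transcript of Cnksr2 had a GC content of 43.7%, against 62.4% for Shank3, 59.6% for Iqsec2 and 53.9% for Camk2b. Over all promoters the median GC content was 52%. Of the 28 members with a promoter in the table used here, 19 held a GC box, against 33% of the 27025 promoters compared. Those promoters were not limited to expressed genes. Camk2a, Camk4, Shank1, Shank2, Dlgap2, Camk2g and Ppp3ca are not among them. The windows of Dlg4, Dlgap4, Baiap2, Sipa1l1 and Gphn begin inside an exon of the gene. Those of Dlg2, Dlg3, Homer1, Homer2, Camk2d, Kalrn and Iqsec1 also lay inside the annotated gene, so the count of GC boxes does not cover upstream sequence alone. The E-box CACGTG was in 2 of 28 members (6.04% of all promoters), the cAMP response element TGACGTCA in 0 of 28 (1.6%) and the TATA box TATAAA in 1 of 28 (13%), all searched on both strands.

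The SHANK genes, which encode the large scaffolds that join SAPAP to HOMER, had the highest family median in the 8 libraries, but over the 6 libraries the adaptors had 0.34 against 0.28. Shank3 (ENSMUSG00000022623, chromosome 15, 89499623 to 89560261) measured 16.2, 14.8 and 17.8 CPM in WT 1, 2 and 3 and 19.1, 21.1, 24.5 and 34.4 CPM across cKO 1 to 4, and the library labelled cKO 5 gave 44.1 CPM. All 5 cKO libraries lay above all 3 WT libraries, with cKO 4 and the library labelled cKO 5 far above the others. The log2 fold change of 0.82 ± 0.27, or 1.76-fold, had an unadjusted p of 0.0105 but 0.499 after adjustment by edgeR, and the exact permutation p was 0.0536. It did not pass. Over the 6 libraries it was 0.4.

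Shank1 (ENSMUSG00000038738, chromosome 7, 44310253 to 44360572) measured 549.9, 467 and 501 CPM in the WT pools and 502, 593, 752 and 996 CPM across cKO 1 to 4, and the library labelled cKO 5 gave 1395 CPM. Library cKO 1 lay within the WT range and the other 4 above it, so the groups overlapped. A log2 fold change of 0.74 ± 0.28 gave an unadjusted p of 0.022 and 0.522 after adjustment by edgeR. It was 0.49 without the library labelled cKO 5 and 0.28 over the 6 libraries. Shank2 (ENSMUSG00000037541, chromosome 7, 144001928 to 144424494) measured 491, 489 and 486 CPM in the WT pools, a narrow range, and 519, 505, 566 and 580 CPM across cKO 1 to 4, and the library labelled cKO 5 gave 679.7 CPM. Every cKO library lay above it, by a log2 fold change of 0.22 ± 0.1 (unadjusted p 0.0551, edgeR adjusted p 0.578). Shank2 stood at 0.11 over the 6 libraries.

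The make-up of the SHANK family was also compared. The share of Shank3 in the family, per length, was 1.76 to 2.04% in WT and 2.1 to 2.46% in cKO, without overlap. The share of Shank1 was 48.6 to 52.5% in WT and 48.7 to 66.1% in cKO, and that of Shank2 was 45.8 to 49.6% in WT and 31.5 to 49.2% in cKO. Both ranges overlapped, with cKO 1 beside the WT libraries and the library labelled cKO 5 farthest from them.

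The CaM kinase II subunits did not share a direction: the alpha and beta subunits were higher without overlap, and the gamma and delta subunits had lower means in cKO. Camk2a (ENSMUSG00000024617, chromosome 18, 60925618 to 60988152) measured 6336, 5929.7 and 5962 CPM in the WT pools and 6541, 6440.2, 6850.3 and 7948 CPM across cKO 1 to 4, and the library labelled cKO 5 gave 10057 CPM. All cKO libraries were above all WT libraries, but cKO 1 and cKO 2 by little. A log2 fold change of 0.32 ± 0.14 gave an unadjusted p of 0.0417 and 0.562 after adjustment by edgeR, and it was 0.19 without the library labelled cKO 5 and 0.12 over the 6 libraries. Camk2a took 0.601 to 0.64% of all counts in WT and 0.652 to 0.955% in cKO.

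Camk2b (ENSMUSG00000057897, chromosome 11, 5969644 to 6066362), the beta subunit, which binds actin, measured 626, 636 and 649 CPM in the WT pools and 696, 759.5, 751 and 742 CPM across cKO 1 to 4, and the library labelled cKO 5 gave 846 CPM. The WT values were close together and each cKO library lay above them. The unadjusted p of its log2 fold change, 0.25 ± 0.08, was 0.0111, the one adjusted by edgeR 0.499 and the exact permutation p 0.0179, the smallest that 8 libraries in these groups allow. It was 0.2 over the 6 libraries, so Camk2b moved less with those 2 libraries than the SHANK genes did. The remaining subunits gave no such separation. Camk2g was at 90.3 ± 17.5 CPM (WT) against 83.1 ± 10.5 CPM (cKO), and Camk2d at 48.5 ± 4.76 CPM (WT) against 37.1 ± 15.4 CPM (cKO). For Camk2d, cKO 2 lay at 61.8 CPM, above every WT library, and the other 4 cKO libraries at 22.3 to 41 CPM, below every WT library. Camk4, a nuclear kinase that phosphorylates the transcription factor CREB, was at 297 ± 8.8 CPM (WT) against 275 ± 13.5 CPM (cKO), with 4 of 5 cKO libraries below the WT range.

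Sums of glutamatergic and GABAergic neuron markers lay farthest from the WT range in cKO 4 and the library labelled cKO 5. The summed level of 8 glutamatergic neuron markers was 1686 to 1795 CPM in WT, 1653 to 1893 in cKO 1, 2 and 3, and 2040 in cKO 4, and the library labelled cKO 5 reached 2201. The 8 GABAergic markers summed to 156 to 196 CPM in WT, 156 to 208 in cKO 1, 2 and 3, and 109 in cKO 4, and the library labelled cKO 5 had 103. All 8 of each list were tested and none was at 0 in any library. Slc17a7, of the glutamatergic list, lay above WT in all 5 cKO libraries. It measured 333 to 365 CPM in WT and 439, 452 and 471 CPM in cKO 1, 2 and 3. By edgeR its unadjusted p was 0.000329 and its adjusted p 0.47. Slc17a7 was the 1 gene of the 8 that was higher at an unadjusted p under 0.05, and 0 were lower (against 5.02% and 3.7% of all genes). The sum of the list did not follow Slc17a7 in every library: cKO 1 (1653 CPM) lay below the WT range and cKO 2 (1764 CPM) within it. Of the other lists, the 8 oligodendrocyte markers summed to 68.9 to 72.3 CPM in WT and 80.7 to 104 in cKO, and the 6 precursor markers to 3.32 to 4.23 and 5.72 to 9.1 CPM, with Olig2 at 0 in a library. The 8 astrocyte markers summed to 328 to 437 CPM in WT and 330.1 to 504 in cKO, with Aldh1l1 at 0 in a library. The 8 vessel markers, 5 of them tested, summed to 54.3 to 72.6 CPM in WT and 22.6 to 86.3 in cKO, lowest in the library labelled cKO 5 and in cKO 4 (29.3), with Cldn5, Tek and Vtn at 0 in a library. The 8 microglia markers, 5 of them tested, summed to 9.41 to 16.2 CPM in WT and 7.82 to 14.5 in cKO, with Tmem119, C1qa, C1qb and C1qc at 0 in a library. The 6 choroid plexus and ependymal markers, 4 of them tested, summed to 27.8 to 37.7 and 25.6 to 73.9 CPM, with Folr1, Clic6 and Tmem212 at 0 in a library. The 8 markers of CCK interneurons, which share 3 genes with the GABAergic list, summed to 712 to 901 CPM in WT and 842 to 1084 in cKO, highest in cKO 4, while the library labelled cKO 5 had 905, below cKO 1 (939.9). The part of these markers in the members' differences was not tested.

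**Figure D4:**
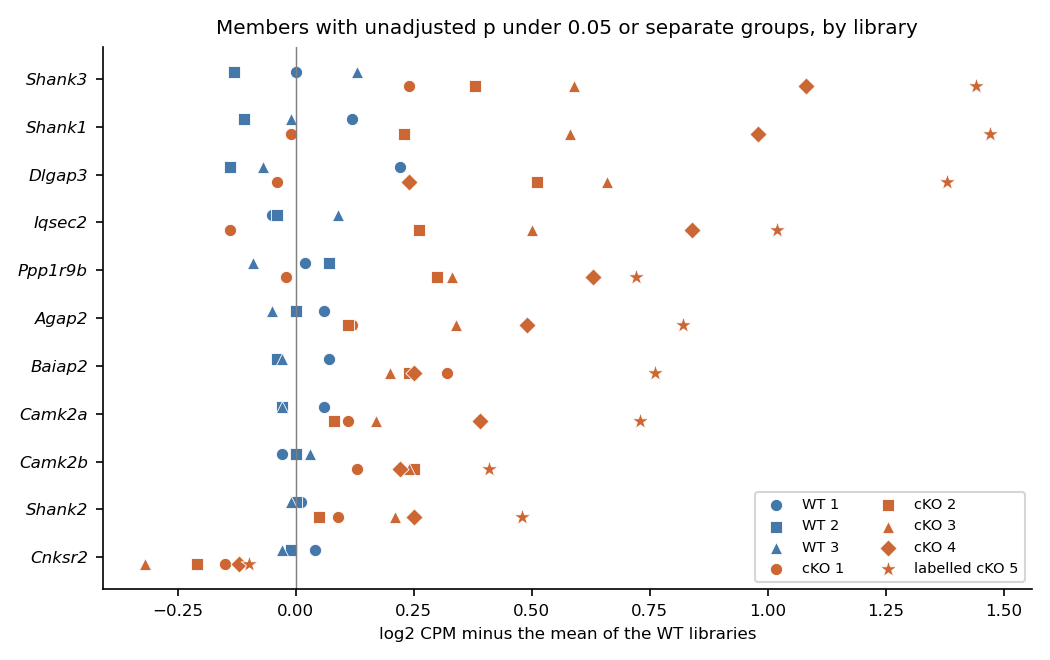
Each point is 1 library: log2 CPM minus the WT mean for the 11 members with an unadjusted p under 0.05 or separate groups, WT in blue and cKO in orange. For the 10 members with cKO higher, the library labelled cKO 5 is the farthest right, and for Cnksr2 all cKO points lie left of the WT points.

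The regulators of small GTPases, which shape the actin of dendritic spines, pointed both ways: at an unadjusted p under 0.05, 3 of 8 were higher and 1 lower, against 5.02% and 3.7% of all genes. Agap2 (ENSMUSG00000025422, chromosome 10, 127075284 to 127093169), which encodes a GTPase-activating protein for Arf proteins, measured 205, 196 and 189 CPM in the WT pools and 214, 212, 249 and 276 CPM across cKO 1 to 4, and the library labelled cKO 5 gave 346 CPM. The groups did not overlap, and the log2 fold change of 0.4 ± 0.15 gave an unadjusted p of 0.0238 and 0.528 after adjustment by edgeR, and it was 0.19 over the 6 libraries. Baiap2 (ENSMUSG00000025372, chromosome 11, 119942763 to 120006782), whose protein IRSp53 links Rac and Cdc42 to actin, measured 132, 123 and 124 CPM in the WT pools and 157, 148, 145 and 149.8 CPM across cKO 1 to 4, and the library labelled cKO 5 gave 214 CPM. Its 5 cKO libraries lay above WT, 4 of them close together, and the log2 fold change of 0.37 ± 0.13 gave an unadjusted p of 0.019 and 0.511 after adjustment by edgeR. Baiap2 stood at 0.25 over the 6 libraries, where its groups also did not overlap.

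Cnksr2 (ENSMUSG00000025658, chromosome X, 157821436 to 158043294), which encodes a scaffold that binds MAGUKs and regulators of Ras and Rac, was the 1 member that was lower without overlap. It measured 1121, 1087 and 1075 CPM in the WT pools and 988, 945, 876 and 1009 CPM across cKO 1 to 4, and the library labelled cKO 5 gave 1019 CPM. All cKO libraries lay below WT, with cKO 4 and the library labelled cKO 5 nearest to it. The unadjusted p of its log2 fold change, -0.18 ± 0.08, was 0.0427, the one adjusted by edgeR 0.562 and the exact permutation p 0.0357. It was -0.23 over the 6 libraries.

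The IQSEC genes encode exchange factors for Arf proteins. Iqsec2 (ENSMUSG00000041115, chromosome X, 152144268 to 152225236), found at excitatory synapses, measured 77.8, 78.8 and 86 CPM in the WT pools and 73.4, 96.5, 115 and 144 CPM across cKO 1 to 4, and the library labelled cKO 5 gave 164 CPM, so that cKO 1 lay below WT and the other 4 above. A log2 fold change of 0.55 ± 0.22 gave an unadjusted p of 0.0297 and 0.541 after adjustment by edgeR, and it was 0.22 over the 6 libraries. Iqsec1 was at 181 ± 1.59 CPM (WT) against 174 ± 31.6 CPM (cKO), and Iqsec3, found at inhibitory synapses, at 135 ± 12.7 CPM (WT) against 148 ± 19.7 CPM (cKO). The shares of Iqsec1 and Iqsec2 in the family separated the groups more than the levels did. The share of Iqsec1, per length, was 43.7, 41.8 and 40.7% in WT 1, 2 and 3, and 35.4, 36.6, 35.1, 34.1 and 33.9% in the 5 cKO libraries in order. The share of Iqsec2 was 31.3, 30.5 and 31.8% in WT, and 35.1, 33.5, 38, 44.5 and 43.9% in the cKO libraries. Neither share overlapped between groups, cKO 1 included, while the share of Iqsec3 did. Shares of a family add up to the whole, so a higher share of Iqsec2 lowers the others, and these are not separate results. Iqsec1 itself measured 179.8 to 183 CPM in WT and 123, 175, 176, 184 and 210.4 CPM in the 5 cKO libraries in order. How often shares separate in other families was not examined. Shares were examined in 7 families: Dlg, Dlgap, Shank, Homer, Camk2, Iqsec and Ppp1r9. Apart from Shank3, Iqsec1 and Iqsec2, every share overlapped between the groups. These shares do not depend on how library sizes are scaled, and they are a description without a test. They are not adjusted for GC content, which was 59.6% for Iqsec2 and 52.1% for Iqsec1. With GC and length offsets the log2 fold change was 0.31 for Iqsec2 and -0.17 for Iqsec1. The part of GC content in the shares was not tested.

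**Figure D5:**
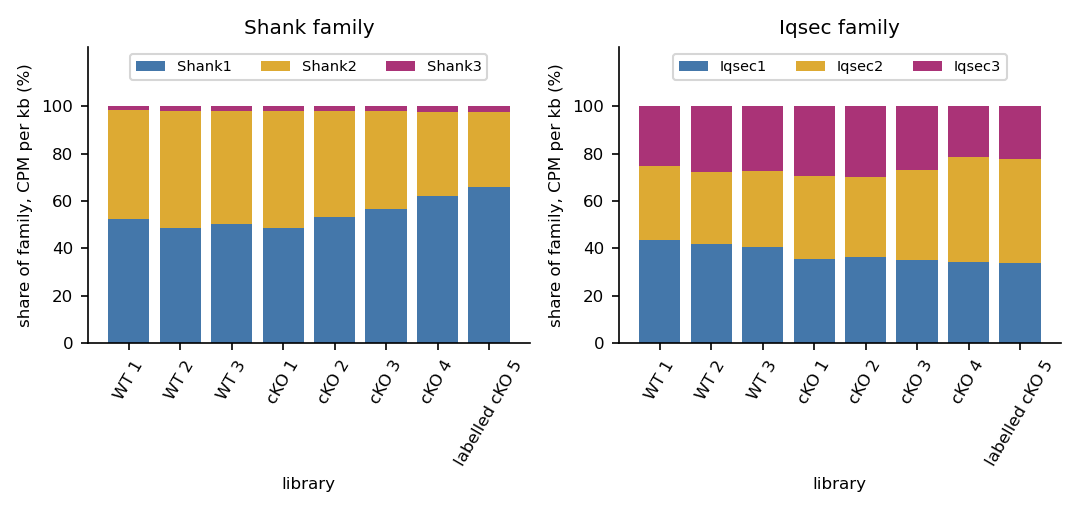
Share of each gene in the SHANK family (left) and the IQSEC family (right), from CPM per kilobase of merged exons, 1 bar per library. Iqsec1 takes 40.7 to 43.7% in WT and 33.9 to 36.6% in cKO, and Shank3 is the thin top segment in the left panel, 1.76 to 2.46%.

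Of the other regulators, Kalrn, an exchange factor for Rac, was at 1791 ± 312 CPM (WT) against 2148 ± 704 CPM (cKO), with cKO values from 1136 to 2804 CPM that enclosed all WT values. Sipa1l1, a GTPase-activating protein for Rap, was at 741 ± 31.6 CPM (WT) against 739 ± 76.1 CPM (cKO).

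The MAGUK and SAPAP scaffolds overlapped between groups. Dlg4 was at 250.4 ± 32.1 CPM (WT) against 277 ± 47.6 CPM (cKO), Dlg2 at 341 ± 3.5 CPM (WT) against 347 ± 21 CPM (cKO), Dlg3 at 101 ± 4.61 CPM (WT) against 100.5 ± 8.97 CPM (cKO) and Dlg1 at 48.3 ± 2.51 CPM (WT) against 45.3 ± 3.19 CPM (cKO). Among the SAPAP genes, Dlgap1 was at 777 ± 34.1 CPM (WT) against 778 ± 122 CPM (cKO), Dlgap2 at 90.8 ± 14.6 CPM (WT) against 91.9 ± 14.9 CPM (cKO) and Dlgap4 at 154 ± 13.8 CPM (WT) against 176 ± 18.3 CPM (cKO). Dlgap3 (ENSMUSG00000042388, chromosome 4, 127169204 to 127237022), the lowest SAPAP gene per length, measured 21.5, 16.8 and 17.6 CPM in the WT pools and 18, 26.3, 29.3 and 21.8 CPM across cKO 1 to 4, and the library labelled cKO 5 gave 48.1 CPM. Library cKO 1 lay within the WT range and the other 4 above it. A log2 fold change of 0.62 ± 0.28 gave an unadjusted p of 0.0491 and 0.569 after adjustment by edgeR, and it was 0.35 without the library labelled cKO 5 and 0.39 over the 6 libraries.

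The HOMER genes overlapped between groups. Homer1 was at 258 ± 20.2 CPM (WT) against 259 ± 38.7 CPM (cKO), Homer2 at 257 ± 36.8 CPM (WT) against 280.4 ± 74.2 CPM (cKO) and Homer3 at 15.7 ± 1.4 CPM (WT) against 15.7 ± 2.39 CPM (cKO). For Homer3, 25.4% of exon bases are shared with the gene Ddx49 on the opposite strand, and for Pick1 18.6% with Gm49486 on the same strand, and whether counting used the strand is not given in the sources used here. The other 33 members share at most 5% of their exon bases with another gene.

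Among phosphatase genes, Ppp1r9b (ENSMUSG00000038976, chromosome 11, 94991035 to 95006899), which encodes spinophilin, a partner of protein phosphatase 1 in spines, measured 156, 162 and 145 CPM in the WT pools and 152, 189, 193 and 239 CPM across cKO 1 to 4, and the library labelled cKO 5 gave 255 CPM. Again cKO 1 lay within the WT range and the other 4 cKO libraries above it. A log2 fold change of 0.41 ± 0.15 gave an unadjusted p of 0.0206 and 0.52 after adjustment by edgeR, and it was 0.2 over the 6 libraries. Its paralog Ppp1r9a, which encodes neurabin, was at 193 ± 6.94 CPM (WT) against 224 ± 39.1 CPM (cKO). Ppp3ca was at 1801 ± 154 CPM (WT) against 1680 ± 243 CPM (cKO), and Akap5, which anchors protein kinase A and calcineurin at the membrane, at 208 ± 18.5 CPM (WT) against 206 ± 24.4 CPM (cKO).

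The adaptors were low and overlapped between groups. Begain, a MAGUK-binding protein, was at 26 ± 3.73 CPM (WT) against 33.5 ± 8.51 CPM (cKO). Grip1 and Pick1, both of which bind AMPA receptors, were at 13.7 ± 2.6 CPM (WT) against 16.6 ± 4.4 CPM (cKO) and at 7.61 ± 0.929 CPM (WT) against 10.1 ± 2.13 CPM (cKO). Gphn, which encodes gephyrin, measured 76.2, 65.5 and 78 CPM in the WT pools and 67.9, 75.5, 55.5 and 41 CPM across cKO 1 to 4, and the library labelled cKO 5 gave 59.6 CPM. No cKO library exceeded the WT maximum and 3 of 5 lay below the WT minimum.

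Other genes of the postsynapse, in 5 lists whose genes were all tested, gave 0 calls at an edgeR adjusted p of 0.05 (of all genes tested, 8.72% had an unadjusted p under 0.05 in either direction, 5.02% with cKO higher and 3.7% with cKO lower). Of 21 further regulators of small GTPases, 3 had an unadjusted p under 0.05, all with cKO higher, and the median was 0.13. Psd, an exchange factor for Arf6, was at 0.73 ± 0.26 and Sipa1l3 at 0.45 ± 0.19, with 0.499 and 0.557 as edgeR adjusted p. Of 28 actin-linked and other scaffold genes, 2 were higher and 0 lower, with a median of 0.02. The MAGUK Mpp2 was at 0.48 ± 0.16, Ddn, which encodes dendrin, at 0.52 ± 0.2 and Magi3 at -0.37 ± 0.17. Of 25 calmodulin, kinase and phosphatase genes, 2 were higher and 1 lower, with a median of 0.07. Prkaca, a catalytic subunit of protein kinase A, was at 0.44 ± 0.13 and Camkk2, which encodes a kinase that activates Camk4, at -0.27 ± 0.09.

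The 11 glutamate receptor genes, whose proteins the scaffolds hold, were all above 0 with a median of 0.22, and 3 were higher at an unadjusted p under 0.05, against 5.02% of all genes (Grin2c, at most 1.82 CPM in any library, is among the 11). Over the 6 libraries 6 of the 11 were above 0, with limma-voom 7, and the median was 0.08 and 0.06. Grin1, the obligate NMDA receptor subunit, measured 148, 160 and 128 CPM in the WT pools and 167, 186, 199 and 295 CPM across cKO 1 to 4, and the library labelled cKO 5 gave 312 CPM, above WT in every cKO library. The log2 fold change of Grin1 was 0.68 ± 0.21 and that of the AMPA receptor gene Gria1 0.3 ± 0.14. Of 16 genes of the inhibitory postsynapse, 2 were higher at an unadjusted p under 0.05 (against 5.02% of all genes) and 0 lower (against 3.7%), with a median of 0. Gabra3, a GABA-A receptor subunit, was at 0.49 ± 0.15, the adhesion molecule Slitrk3 at 0.22 ± 0.09 and Gabra4 at -0.26 ± 0.12.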

How the data were processed

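The authors deposited raw counts per Ensembl gene for all 8 libraries, whole numbers without scaling. STAR 2.5.3a, HTSeq and the build mm10 are named per the submitters' processing notes; annotation release, strandedness and filters are not given in the sources used here. Symbols, positions and merged exon lengths came from GENCODE vM21, which matched 37693 genes (96.6%). GC content came from the longest transcript and was known for 98.2% of genes tested.

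Differences were fitted by edgeR 4.0.16 under R 4.3.3: trimmed-mean scaling, filterByExpr by group, robust dispersions and a two-sided quasi-likelihood test over all 8 libraries, with Benjamini-Hochberg adjustment over 17654 genes. Exact permutation tests, two-sided, compared mean log2 CPM over 56 splits; the smallest possible p is 0.0179. Alternatives were other scalings and filters, non-robust dispersions, DESeq2 1.42.0 and limma-voom (limma 3.58.1) with quality weights, which give more variable libraries less weight. Others were GC and length offsets, 6 libraries with and without the library number, and each library left out. The members and lists are by name and function, but were chosen with earlier results of these data known. Fold changes with p are printed for members with an unadjusted p under 0.05 or separate groups, and for the 3 genes of smallest p per list with a mean CPM of at least 1, except some that are not reported here. Figures used Python 3.11.15 and matplotlib 3.10.9.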

Additional observations from a re-analysis of the deposited data

Results flagged for a closer look

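Among 68 values checked over the cKO libraries for 1 that lies apart (its gap to the nearest, over the whole range, above 0.71), 5 values stood out, where chance gives about 3.4. The first 3 concern members. Dlg3 was at 85 CPM in cKO 2, where the rest of the group had 103 to 108 CPM, a gap of 0.764. Homer3 was at 11.5 CPM in the library labelled cKO 5, against 16.1 to 17.3 CPM, a gap of 0.798. Baiap2 was at 214 CPM there, against 145 to 157 CPM, a gap of 0.826. Without that library its log2 fold change was 0.25. Hltf was at 11.4 CPM there, against 2.83 to 5.1 CPM, a gap of 0.737, and the microglia markers summed to 7.82 CPM in cKO 4, against 12.9 to 14.5 CPM, a gap of 0.76.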

How the results depend on the processing

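The 11 members given with p kept their sign under all 20 alternatives, and 0 members passed the adjusted threshold in any. These 11 were picked by p or separate groups from the same libraries, so the kept sign is no independent support. Shank2 came as low as 0.01 and Camk2a as 0.05. Some other members changed sign over the 6 libraries: Kalrn went from 0.26 to -0.06, Dlg4 from 0.15 to -0.04 and Homer2 from 0.13 to -0.16. A separate count covered selected genes only and left out members such as Kalrn, Dlg4 and Homer2. Of the fold changes it covered under an alternative, 594 held sign and side of the threshold, 5 reversed and 1 became stronger. Exceptions were Sipa1l3, which reversed to -0.01 over the 6 libraries with GC and length offsets, with or without the block, Gad1, and Slc17a7, which passed with DESeq2 (0.49). Leaving out 1 library in turn moved Gad1 from -0.15 to 0.28.

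Genes that passed were 2 higher without a filter and with a CPM filter, 68 higher and 40 lower by DESeq2, 3 and 1 by limma-voom, and 5 and 5 over 6 libraries. Among members, DESeq2 gave 0 lower (4.28% of all genes) and limma-voom 2 lower (6.49%) at an unadjusted p under 0.05. GC and length offsets gave 1 higher and 0 lower, with 2 and 0 that did not overlap. Over the 6 libraries, 3 were higher at an unadjusted p under 0.05, 3 were lower without overlap, and the median reversed to -0.03. With the library number as a block (the replicate block), these were again 3, 3 and -0.03, and 0 genes passed. The deviations of same-numbered libraries correlated at -0.085, 0.017 and 0.041, so the numbers were not taken to pair the libraries. With the block and offsets, 1 gene passed, 0 members were higher and 4 lower (3.97% and 5.08% of all genes), 2 and 5 did not overlap (7.23% and 8.84%), and the median was -0.05. The same without the block, an alternative chosen after seeing the data, gave 5 and 3 genes, 0 and 4 members (4.25% and 5.76% of all genes), 2 and 5 (7.23% and 8.84%), and -0.05.

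Leaving out 1 library in turn, 2 to 13 members were higher (2.66 to 6.59% of all genes) and 0 to 2 lower (1.99 to 5.1%) at an unadjusted p under 0.05. In the same fits 6 to 11 members were higher without overlap (4.52 to 6.64% of all genes) and 1 to 3 lower (4.68 to 7.03%). The cause of these changes was not tested. Family shares without division by length moved in 37 values, and Iqsec1 then went from 45.7% in WT to 39.4% in cKO and Iqsec2 from 20.4 to 26.5%. The least counted member had at least 259 counts in every library.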
